A study of Mus musculus with 9 samples.

Results

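The nuclear genes of the respiratory chain were taken as the protein-coding genes of the later deposited table whose symbols begin with Nduf and a family letter (a, b, c, s or v) and a number, with Cox4 to Cox8, with Uqcr or with Atp5, together with Sdha, Sdhb, Sdhc and Sdhd. This rule used names only and found 85 of the 54532 genes listed, of which 22046 were protein-coding. Of the members, 35 belonged to complex I, 4 to complex II, 8 to complex III, 20 to complex IV and 18 to complex V. Ndufa4 and Ndufa4l2 were placed in complex IV, where the Ndufa4 protein is now known to sit. The symbol Atp5o stood for 2 gene identifiers, one of which was listed at 0 in all 9 libraries, as was Cox8c.

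Oxidative phosphorylation runs in the inner mitochondrial membrane. Complex I takes electrons from NADH and complex II takes them from succinate, complex III passes them from ubiquinol to cytochrome c, and complex IV hands them to oxygen. Complexes I, III and IV pump protons, and complex V, the ATP synthase, lets the protons back and makes ATP. Most subunits are encoded in the nucleus and imported, and a smaller set is encoded in mitochondrial DNA, so that the complexes are assembled from the products of both genomes. Neurons depend on this pathway for most of the ATP that ion pumping and synaptic transmission consume.

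RNA was sequenced from the hippocampus of C57BL/6 mice labelled male and 6 to 8 weeks old, in 3 groups of 3 libraries. Con mice ate a standard diet and carry the genotype label WT. HMD mice ate a high-methionine diet for 8 weeks, which raises homocysteine, and Bet+HMD mice were given betaine, a methyl donor, at 2.5% (w/v) in the drinking water for 2 weeks after 8 weeks of the same diet. Whether the diet went on in those 2 weeks is not stated, and the study's methods describe the mice as female and 8 weeks old. Since the diet alone lasted 8 weeks, the labelled age was not taken as the age at sampling. The strain labels of the Bet+HMD samples read C57BL/6, C57BL/7 and C57BL/8. Per the labels 2 mice shared a cage, the study's methods give another number, and nothing says which libraries came from cage mates. Because the tissue was bulk RNA, fewer cells of a type and less RNA per cell cannot be told apart.

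The libraries held 16031464 to 18291952 reads assigned to genes. Bet+HMD occurred only in the later of the 2 deposited tables, its libraries had a read on 25315 to 25663 genes against 20816 to 23272 in Con and HMD, and the summed FPKM (fragments counted on a gene, scaled by gene length and library size) was 249135 to 258514 against 288439 to 307899. What set those libraries apart as a group and betaine itself cannot be told apart. The neuron markers summed to 951 to 1106 FPKM in Con, 1000.6 to 1172 in HMD and 924 to 929 in Bet+HMD, and all 8 hippocampal markers were detected in every group. Y-linked genes were expressed and Xist was near 0 in all 9 libraries. Con replicate 3 stood apart in the members, as given with the comparison of HMD and Con below, and the 8 long noncoding RNAs that are retained in the nucleus, among them Malat1 and Meg3, summed to 84.4 to 139 FPKM in Con, 99.1 to 144 in HMD and 904 to 958 in Bet+HMD.

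Promoter sequences of RefSeq (GRCm38.p6, the coordinates of the deposited tables being those of mm10) were matched to 68 of the 85 members, which gave 73 promoters of 300 bases. Many promoters of this pathway are known to bind NRF-1, the ETS factor GABP (also called NRF-2) and YY1, so 3 strings were searched on both strands: GCGCATGC, which is part of an NRF-1 site, CCGGAAG for ETS factors, and AAGATGGC for YY1. The first was found in 10 of the 73 promoters (13.7%) and in 2.71% of all 32851 promoters of the table. The ETS string was found in 16 (21.9%, against 8.86%), and the YY1 string in 10 (13.7%, against 2.75%). A promoter counted once per string, and no string holds another. Among the 55 promoters of members called lower in Bet+HMD than in HMD, 9 held the NRF-1 string, 12 the ETS string and 8 the YY1 string. Among the 16 promoters of tested members not called lower the numbers were 1, 4 and 2. Ndufc1, Sdhb, Uqcrh and Atp5e had the largest falls of their complexes in Bet+HMD against Con, and Cox5b was called higher in Bet+HMD against HMD, as described with the comparisons. Shown are the stretches from 150 bases before to 30 bases after their start sites, with the matches in capitals. They lie at chr3:51408926-51409105 (minus strand, Ndufc1), chr4:140961121-140961300 (plus strand, Sdhb), chr4:116075041-116075220 (minus strand, Uqcrh), chr2:174464072-174464251 (minus strand, Atp5e), chr1:36691337-36691516 (plus strand, Cox5b). Ndufc1 carries the YY1 string, and Sdhb the ETS string and, on the other strand, the NRF-1 string. Uqcrh and Atp5e carry the ETS string on the other strand, and Cox5b none of the 3 in its 300 bases. A match is a description of the letters and not a site shown to be bound.
Ndufc1: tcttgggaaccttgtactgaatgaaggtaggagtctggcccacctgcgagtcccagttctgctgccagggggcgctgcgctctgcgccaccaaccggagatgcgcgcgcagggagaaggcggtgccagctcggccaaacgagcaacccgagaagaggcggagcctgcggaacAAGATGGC
Sdhb: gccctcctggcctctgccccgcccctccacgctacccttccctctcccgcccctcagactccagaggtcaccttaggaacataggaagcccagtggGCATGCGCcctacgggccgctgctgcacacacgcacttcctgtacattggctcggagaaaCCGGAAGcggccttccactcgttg
Uqcrh: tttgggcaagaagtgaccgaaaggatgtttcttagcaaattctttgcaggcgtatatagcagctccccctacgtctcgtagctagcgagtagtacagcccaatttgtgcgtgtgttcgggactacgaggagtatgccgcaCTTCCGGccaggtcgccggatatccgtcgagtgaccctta
Atp5e: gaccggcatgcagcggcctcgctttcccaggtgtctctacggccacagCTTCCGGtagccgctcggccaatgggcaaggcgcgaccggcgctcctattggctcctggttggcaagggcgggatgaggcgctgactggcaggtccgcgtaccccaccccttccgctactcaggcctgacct
Cox5b: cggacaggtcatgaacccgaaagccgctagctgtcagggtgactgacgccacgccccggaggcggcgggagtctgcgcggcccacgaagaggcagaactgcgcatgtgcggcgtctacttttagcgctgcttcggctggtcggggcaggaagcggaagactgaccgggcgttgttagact

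The members took 0.831 ± 0.185% of the assigned reads in Con (SD, n = 3), 0.753 ± 0.0582% in HMD and 0.482 ± 0.0366% in Bet+HMD. No Bet+HMD library reached the lowest library of the other groups, since the ranges were 0.701% to 1.04%, 0.689% to 0.803% and 0.441% to 0.510%. Per length, complex IV held the largest part of the summed FPKM of the members in Con (35.5%), ahead of complex I (27.5%) and complex V (22.7%), with complex III at 10.2% and complex II at 4.14%. The gene lengths behind FPKM are the union of all exons of a gene, which lowers the FPKM of genes with long alternative transcripts, such as Ndufs1 (8086 bases, longest transcript 2661). On this scale the highest mean in Con was that of Cox8a, a small membrane subunit of complex IV, at 399 ± 134 FPKM, followed by Cox6a1 at 391 ± 42.1. Those 2 means did not differ beyond the spread of Cox8a, and Cox8a led only through Con replicate 3, at 554 against 439. Cox6a1 was the higher of the 2 in the other Con libraries and in all 3 HMD libraries, with means of 381 and 332 FPKM in HMD. The ATP synthase subunits alpha (Atp5a1) and beta (Atp5b) stood at 259 ± 13.0 and 219 ± 27.6 FPKM in Con, a difference larger than either SD, although the highest Atp5b library (Con replicate 3) passed the lowest Atp5a1 library. In complex I the highest mean in Con was that of Ndufc2 (81.9 ± 34.5), which was 121 FPKM in Con replicate 3 and in HMD (64.4 ± 14.5) lay below Ndufb11 (68.8 ± 6.57) by less than its spread. The lowest in Con was Ndufb2 (4.48 ± 1.54), whose gene length was 5628 bases.

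**Figure D1:**
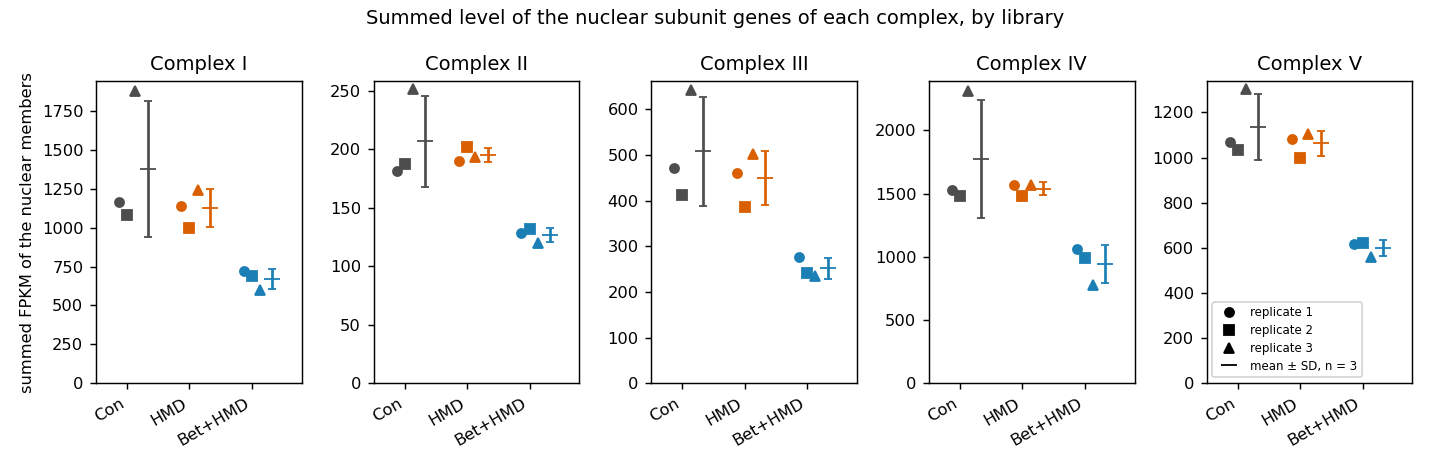
Summed FPKM of the nuclear members of each complex (y axis, linear from 0) in each library of Con, HMD and Bet+HMD, with the mean ± SD of the 3 libraries beside the points. In every complex the 3 Bet+HMD libraries lie below all Con and HMD libraries, and Con replicate 3 is the highest library.

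HMD was compared with Con to ask what 8 weeks of excess methionine did to these genes. No member was called at an adjusted p under 0.05 by limma on log2(FPKM + 1), out of 83 tested, and the smallest adjusted p was 0.979. None had an unadjusted p under 0.05 either, and limma voom on the recovered reads called none. Over all 13004 genes tested the share called was 0%, with 588 at an unadjusted p under 0.05. The median log2 fold change of the members was -0.15, against -0.01 over all genes, and 68 of the 83 values were below 0. By complex the medians were -0.18 for I, -0.09 for II, -0.14 for III, -0.15 for IV and -0.12 for V. The groups did not overlap for 3 members, which were Uqcrc1 (higher in HMD), Ndufs8 and Ndufb3 (both lower), against 9.61% of all genes tested.

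The direction of that median rested on Con replicate 3. Of the 83 members with reads, 64 had their highest value of all 9 libraries there. Ndufa1, a small membrane subunit needed for complex I assembly, stood at 44.5, 53.7 and 128 FPKM in Con, 45.5, 46.7 and 44.1 in HMD and 17.4, 19.969 and 14.3 in Bet+HMD. Uqcr11, the smallest subunit of complex III, showed the same form with 36.3, 19.6 and 111 FPKM in Con, 26.3, 9.98 and 34.7 in HMD and 32.4, 28.9 and 26.1 in Bet+HMD. Ndufs6, a zinc-binding accessory subunit, reached 41.7 FPKM in Con replicate 3 against 8.74 and 5.98 in the other Con libraries. The 3 members with the smallest p in the downward direction, Cox6c (log2 fold change -0.38, SE 0.21), Ndufa1 (-0.56, SE 0.35) and Ndufb9 (-0.49, SE 0.31), all had their highest Con value in replicate 3, and none was called. In the upward direction they were Uqcrc1, a core subunit of complex III (0.20, SE 0.10), Atp5s (0.25, SE 0.17) and Sdhb (0.19, SE 0.14). Without Con replicate 3 the median log2 fold change of the members was 0.02, and again no member was called. The median coefficient of variation of the members over the Con libraries was 24.0% with that library and 12.0% without it, next to 12.1% in HMD and 11.9% in Bet+HMD.

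The height of Con replicate 3 moved with gene length. Relative to the mean of all 9 libraries, its members shorter than 1000 bases lay at a median of 1.13 on the log2 scale, those of 1000 to 2000 bases at 0.75 and those of 4000 bases or more at 0.49. Other protein-coding genes in the same library lay at 0.60, 0.33 and -0.08 in those length classes. Across the 83 members the log2 fold change of HMD against Con went up with log2 gene length (Pearson's r = 0.43, Spearman's rho = 0.40), a description across genes that share the same 6 libraries. The choroid plexus markers, led by Ttr, ranged widely among libraries of one group (769.9 to 3201 FPKM in Con, 866 to 2574 in HMD and 935 to 1209.6 in Bet+HMD), and the thalamus markers summed to 15.7 to 23.1 FPKM in Con, 33.9 to 78.2 in HMD and 23.8 to 24.6 in Bet+HMD. Their part in the members' values was not tested.

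**Figure D2:**
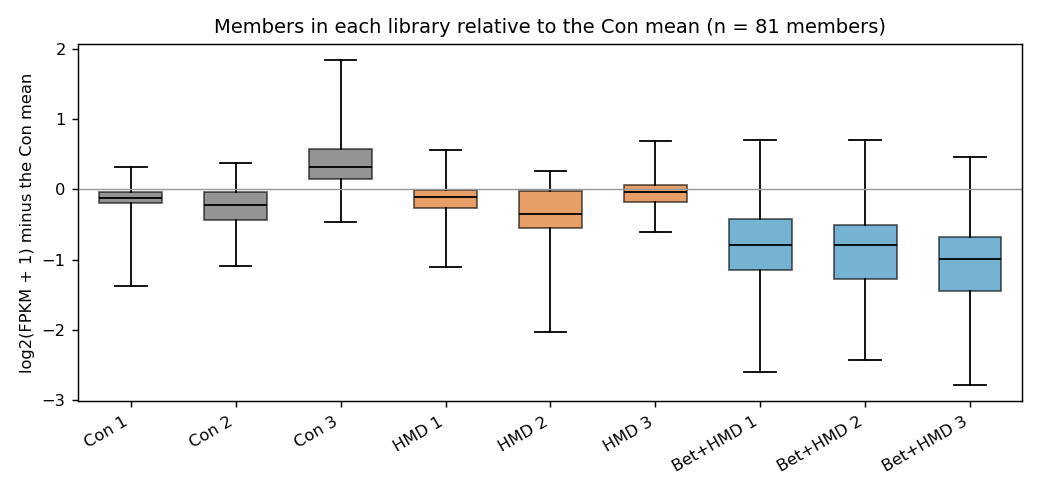
Box plots, one per library, of log2(FPKM + 1) of 81 members minus their mean in Con (y axis, boxes from the first to the third quartile, line at the median, whiskers to the lowest and highest member). Con replicate 3 has a median of 0.32 and the Bet+HMD libraries have medians of -0.99 to -0.79.

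The second question was what followed betaine given after the diet, for which Bet+HMD was set against HMD. Most members were lower in Bet+HMD: 60 of the 81 tested were called lower, 3 were called higher and 18 were not called. Over all 13672 genes tested, 25.5% were called lower and 22.8% higher. The median log2 fold change was -0.73 over the members and -0.03 over all genes tested. The groups did not overlap, with Bet+HMD lower, for 60 of the 81 members, against 31.8% of all genes. A fall to -1 or less on the log2 scale was called for 23 members, against 2.79% of all genes. Rescaling to TPM moved the median of all genes to 0.16 and gave 49 members lower and 6 higher, with a member median of -0.56, while calls over all genes went from 3489 lower and 3118 higher to 1974 and 4496. The nuclear-retained RNAs moved with this contrast in the other direction, 7 of the 7 tested being called higher, with Meg3, a maternally expressed imprinted RNA, measuring 20.6 ± 3.57 FPKM in HMD and 331 ± 8.56 in Bet+HMD (log2 fold change 3.96, adjusted p = 1.04e-05) and Malat1 28.6 ± 5.398 FPKM in HMD and 139.9 ± 9.03 in Bet+HMD (log2 fold change 2.27, adjusted p = 5.44e-05). Blood markers went the way of the members, with 2 of 5 called lower and sums of 99.8 to 148 FPKM in Con, 149 to 233 in HMD and 72.2 to 122 in Bet+HMD, as did thalamus markers (3 of 5 tested). None of the 5 choroid plexus markers was called. Of the markers of the tissue's own cell types, 4 of 8 for neurons were called lower and 2 higher (median log2 fold change -0.30), 3 of 6 for oligodendrocytes lower (-0.25), 2 of 6 for astrocytes lower (-0.12), 2 of 6 for microglia lower (0.08), 1 of 5 for endothelium lower and 1 higher (-0.04) and 2 of 8 hippocampal markers lower (-0.07). The oligodendrocyte markers summed to 752 to 1012 FPKM in HMD and 732 to 739 in Bet+HMD, and the astrocyte markers to 512 to 653 and 544 to 575. No gene of these lists was at 0 in every library. Their part in the fall of the members was not tested. In each of the 5 complexes the share of members called lower was above the share over all genes, and 46 of the 60 falls were called under all 18 alternatives. The rises were less firm: with no filter, or with all 3 groups in one fit, no member was called higher.

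**Figure D3:**
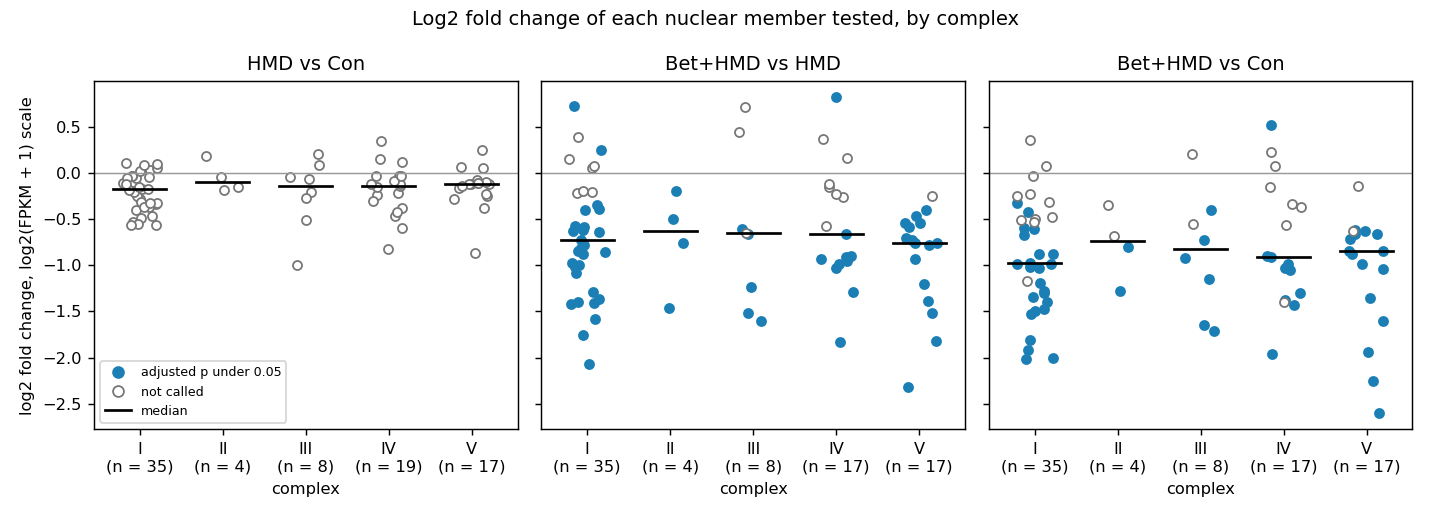
Log2 fold change on the log2(FPKM + 1) scale (y axis) of every member tested, by complex, for the 3 comparisons. Filled points passed an adjusted p under 0.05 and lines mark medians. No point is filled for HMD against Con, and in Bet+HMD against HMD the medians of the 5 complexes lie between -0.76 and -0.63.

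In complex I, 26 of 35 members fell and 2 rose, and the summed level of the complex went from 1126 ± 123 FPKM in HMD to 669 ± 63.6 in Bet+HMD (SD, n = 3). All 7 core subunits, which carry the flavin and the iron-sulphur clusters from NADH to the quinone site, were called lower, with log2 fold changes from -1.58 to -0.35. Ndufv1, which binds NADH and the flavin, stood at 37.2, 40.5 and 48.3 FPKM in Con, 39.0, 45.5 and 43.4 in HMD and 27.2, 27.4 and 26.7 in Bet+HMD. Its Bet+HMD libraries lay close together and below all others (log2 fold change -0.63, SE 0.08, adjusted p = 0.000680). Ndufs1, the largest core subunit, fell least of the 7, from 16.5 ± 0.818 to 12.7 ± 0.713 FPKM (log2 fold change -0.35, SE 0.07, adjusted p = 0.00770). Ndufs7, beside the quinone site, fell most of the 7, from 43.1 ± 3.33 to 13.8 ± 2.31 (log2 fold change -1.58, SE 0.13, adjusted p = 0.000146).

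Of the 28 accessory subunits of complex I, 19 fell, 2 rose and 7 were not called. The largest fall was that of Ndufc1, a small membrane subunit (chromosome 3, 51404677 to 51408988, minus strand), at 24.9, 33.7 and 23.6 FPKM in Con, 27.6, 28.3 and 28.2 in HMD and 8.01, 5.60 and 4.57 in Bet+HMD. The Con and HMD libraries of Ndufc1 overlapped fully, and each Bet+HMD library lay far under them (log2 fold change -2.07, SE 0.16, adjusted p = 0.000137). Ndufa1 fell too (log2 fold change -1.36, SE 0.12, adjusted p = 0.000193), and so did Ndufs4, an accessory subunit of the matrix arm whose loss causes Leigh-like disease in mice (log2 fold change -0.85, SE 0.11, adjusted p = 0.000780). Ndufa9, near the junction of the arms, fell by less (log2 fold change -0.40, SE 0.10, adjusted p = 0.0146), and was not called without Bet+HMD replicate 3 (-0.36). Ndufb8, a membrane-arm subunit often blotted as a marker of assembled complex I, rose: it stood at 7.22, 4.43 and 17.7 FPKM in Con, 6.90, 4.19 and 8.56 in HMD and 11.6, 11.4 and 10.2 in Bet+HMD. Its Bet+HMD values lay above all HMD values but inside the range of Con (log2 fold change 0.72, SE 0.21, adjusted p = 0.0243), and it was not called without any one of Bet+HMD replicates 1, 2 or 3 (0.69 to 0.78). Ndufb6 was also called higher, by a small step (log2 fold change 0.24, SE 0.08, adjusted p = 0.0467), a call lost without any one of HMD replicates 1 or 2 or Bet+HMD replicates 1, 2 or 3 (0.19 to 0.28). Ndufb3, Ndufb7, Ndufb10, Ndufa10, Ndufc2, Ndufs6 and Ndufv3 were not called, with log2 fold changes between -0.22 and 0.39. Ndufs6 was called higher without HMD replicate 3 (0.53) and Ndufa10 lower without HMD replicate 2 (-0.29).

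Among the other accessory subunits of complex I, those that fell to -1 or less were Ndufa2 (-1.76), Ndufb11 (-1.42), Ndufa5 (-1.41), Ndufb5 (-1.40), Ndufa11 (-1.29), Ndufa7 (-1.08) and Ndufb9 (-1.001), all values being log2 fold changes. Ndufa2, of the matrix arm, stood at 51.6, 49.0 and 96.2 FPKM in Con, 51.9, 46.7 and 59.3 in HMD and 12.8, 16.5 and 15.3 in Bet+HMD. Ndufb11, an X-linked membrane-arm subunit, went from 68.8 ± 6.57 to 25.2 ± 4.52 FPKM, and Ndufa13, also known as GRIM-19, from 37.4 ± 5.55 to 21.6 ± 4.62. Both falls were larger than these SDs, and the SEs of the log2 fold changes were 0.14 and 0.17. The remaining accessory subunits called lower, Ndufa3, Ndufa6, Ndufa8, Ndufa12, Ndufb2, Ndufb4 and Ndufs5, had log2 fold changes from -0.97 to -0.59. Ndufa3, a small membrane subunit, was the one member called lower whose groups overlapped, and its call was lost without any one of HMD replicates 1 or 3 or Bet+HMD replicates 1 or 3 (-0.59 to -0.47). The calls of Ndufa12 and Ndufs5 were lost without any one of HMD replicate 1 or Bet+HMD replicates 1, 2 or 3 (-1.06 to -0.86) and any one of HMD replicates 1 or 3 or Bet+HMD replicates 2 or 3 (-0.81 to -0.66). Of the other core subunits, Ndufv2, Ndufs3 and Ndufs8 had log2 fold changes of -0.88, -0.39 and -1.02 (SE 0.08, 0.09 and 0.14).

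In complex II, which also serves the citric acid cycle and has no subunit encoded in mitochondrial DNA, all 4 members were called lower, by unequal steps. Sdhb, the iron-sulphur subunit (chromosome 4, 140961203 to 140979193, plus strand), stood at 45.6, 59.4 and 45.3 FPKM in Con, 56.3, 60.1 and 54.0 in HMD and 22.2, 20.023 and 17.8 in Bet+HMD. The 3 Bet+HMD values did not reach the lowest of the other 6 libraries (log2 fold change -1.46, SE 0.09, adjusted p = 7.07e-05). The membrane anchors Sdhc and Sdhd fell by less, with log2 fold changes of -0.76 (SE 0.09, adjusted p = 0.000551) and -0.50 (SE 0.09, adjusted p = 0.00317). Sdha, the flavoprotein, was 75.3 ± 2.56 FPKM in HMD and 65.6 ± 1.60 in Bet+HMD (log2 fold change -0.20, SE 0.06, adjusted p = 0.0386), and its direction turned to 0.0019 under TPM, not called, and to 0.19 under quantile normalization, called higher. Its call was also lost without any one of HMD replicate 3 or Bet+HMD replicates 1, 2 or 3 (-0.22 to -0.17). The difference between the Sdhb and Sdha steps was not itself tested.

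In complex III, 5 of 8 members fell, none rose and 3 were not called. Uqcrfs1, the Rieske iron-sulphur protein that takes electrons from ubiquinol, stood at 78.9, 87.7 and 77.4 FPKM in Con, 84.2, 79.955 and 95.2 in HMD and 39.0, 38.2 and 31.2 in Bet+HMD. All 3 Bet+HMD values were well under those of both other groups (log2 fold change -1.24, SE 0.11, adjusted p = 0.000210). The largest fall was that of Uqcr10 (102 ± 17.8 to 32.6 ± 4.44 FPKM, log2 fold change -1.61, SE 0.15, adjusted p = 0.000261), followed by Uqcrh, the hinge protein (chromosome 4, 116066965 to 116075071, minus strand, log2 fold change -1.51, SE 0.12, adjusted p = 0.000155). The core subunits Uqcrc1 and Uqcrc2, which carry no redox centre, fell by less (-0.61, SE 0.07 and -0.66, SE 0.07). Uqcrb, a quinone-site subunit, was at 26.4, 18.7 and 67.0 FPKM in Con, 25.2, 14.5 and 30.5 in HMD and 53.3, 21.7 and 44.8 in Bet+HMD. Its Bet+HMD replicates spread over more than its HMD replicates and the groups overlapped (log2 fold change 0.72, 95% interval -0.15 to 1.58, adjusted p = 0.148). Uqcr11 was not called (0.45, interval -0.48 to 1.37), nor was Uqcrq, a small subunit beside cytochrome b (-0.65, interval -1.19 to -0.10, adjusted p = 0.0542). Leaving out 1 library brought 2 of these past the threshold, Uqcrb higher without Bet+HMD replicate 2 (1.09) and Uqcrq lower without HMD replicate 2 (-0.90).

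In complex IV, 9 of the 17 members tested fell, 1 rose and 7 were not called. The falls were all in the 12 subunits of common, body-wide form, whose median log2 fold change was -0.92. Cox7a2, the body-wide form of subunit 7a, stood at 88.3, 99.2 and 119 FPKM in Con, 100.5, 93.2 and 86.3 in HMD and 27.4, 28.6 and 20.8 in Bet+HMD. The Bet+HMD values were below every HMD and Con value (log2 fold change -1.83, SE 0.13, adjusted p = 9.05e-05). Cox4i1, the regulatory subunit that binds ATP, went from 189 ± 30.024 to 76.5 ± 8.27 FPKM (log2 fold change -1.28, SE 0.13, adjusted p = 0.000383), and Cox6a1 from 381 ± 20.9 to 193 ± 31.0 (log2 fold change -0.99, SE 0.12, adjusted p = 0.000759). Cox5a, Cox6b1, Cox6c, Cox7c and Ndufa4 had log2 fold changes from -1.03 to -0.66, all called, although that of Cox6b1 was lost without any one of HMD replicates 1 or 3 or Bet+HMD replicates 2 or 3 (-0.95 to -0.70). Cox7b, another common form, was not called (-0.27, interval -0.55 to 0.02), but was lower without HMD replicate 2 (-0.37). Cox7a2l, known as the supercomplex factor SCAF1, fell as well (log2 fold change -0.96, SE 0.07, adjusted p = 8.54e-05). Cox8a, one of the 2 most abundant members per length, was not called: it stood at 319.6, 324 and 554 FPKM in Con, 329, 358 and 310.04 in HMD and 355, 329.8 and 229 in Bet+HMD, and the interval of its log2 fold change ran from -0.53 to 0.24. Cox5b, the zinc-binding matrix subunit (chromosome 1, 36691449 to 36693681, plus strand), was the one member of the complex called higher. Cox5b was at 33.8, 17.3 and 88.9 FPKM in Con, 24.7, 15.9 and 37.0 in HMD and 51.7, 45.7 and 36.3 in Bet+HMD. Its Bet+HMD range overlapped the HMD range at 1 library and lay inside the range of Con (log2 fold change 0.82, SE 0.28, adjusted p = 0.0441), and it was not called without any one of HMD replicates 1 or 2 or Bet+HMD replicates 1, 2 or 3 (0.53 to 0.96).

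The 8 tissue forms of complex IV subunits, which are known from heart, muscle, lung, testis or hypoxic tissue, were low in all groups. Cox4i2, the lung form, was 1.19 ± 0.490 FPKM in Con, 1.17 ± 0.665 in HMD and 0.942 ± 0.182 in Bet+HMD. Cox6a2, the heart and muscle form of subunit 6a, stood at 4.07, 3.08 and 2.49 FPKM in Con, 5.16, 3.36 and 2.699 in HMD and 4.74, 5.82 and 4.48 in Bet+HMD, groups that overlapped between HMD and Bet+HMD (log2 fold change 0.37, SE 0.19, adjusted p = 0.145). It was called higher without HMD replicate 1 (0.58). Cox6b2 and Ndufa4l2 were not called (-0.22, SE 0.19 and 0.16, SE 0.19). Cox8b, the muscle form of subunit 8, was 14.1 FPKM in Con replicate 3 and 0.160 to 2.30 in the other 8 libraries, and was not called in Bet+HMD against HMD (-0.58, interval -1.22 to 0.06). Cox7a1 and Cox7b2 did not pass the filter at a mean of 1 FPKM in the comparisons with Bet+HMD, and Cox8c had no read in any library. The share of the tissue form in its pair did not overlap between HMD and Bet+HMD, and was larger in Bet+HMD, for Cox4i2, Cox6a2, Cox7a1 and Ndufa4l2. It overlapped for Cox6b2 (1.55 ± 0.584% and 2.11 ± 0.749%) and for Cox8b, whose mean was smaller in Bet+HMD (0.444 ± 0.254% and 0.226 ± 0.160%). For Cox7a1, which rests on few reads, the Con range of the share (0.232% to 2.76%) spanned that of Bet+HMD (1.02% to 2.17%). Cox6a2 was 0.967 ± 0.304% of the Cox6a1 and Cox6a2 sum in HMD and 2.56 ± 0.408% in Bet+HMD, and Ndufa4l2 was 1.64 ± 0.363% and 3.63 ± 0.290% of its pair. Cox6a2 itself was not called, while Cox6a1 fell, and the shares were not tested.

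In complex V, 16 of the 17 members tested fell and none rose. The 5 subunits of the F1 head and shaft, where ATP is made, all fell. Atp5e, the epsilon subunit of the shaft (chromosome 2, 174461072 to 174464105, minus strand), had the largest fall of all members and stood at 35.3, 25.7 and 47.7 FPKM in Con, 27.7, 19.7 and 42.7 in HMD and 4.98, 5.70 and 4.22 in Bet+HMD. Its Con and HMD libraries spread widely, and its Bet+HMD libraries lay close together under all of them (log2 fold change -2.32, SE 0.25, adjusted p = 0.000450). Atp5a1 and Atp5b fell by smaller steps of -0.78 (SE 0.07) and -0.54 (SE 0.07), the latter at 213, 196 and 249.7 FPKM in Con, 214, 198 and 209 in HMD and 146, 143 and 136 in Bet+HMD. The proton-carrying c ring is encoded by 3 genes whose mature products are identical. Atp5g3 was at 80.2, 85.9 and 97.8 FPKM in Con, 84.7, 75.3 and 81.5 in HMD and 21.7, 23.0 and 21.6 in Bet+HMD. Its Bet+HMD libraries differed by little among themselves and lay far below the rest (log2 fold change -1.82, SE 0.07, adjusted p = 1.57e-05). Atp5g2 and Atp5g1 fell by less (-0.93, SE 0.20 and -0.76, SE 0.16). Atp5g3 made up 64.1 ± 1.70% of the FPKM of the c genes in HMD and 48.4 ± 4.77% in Bet+HMD, ranges that did not overlap. The 4 small membrane subunits around the ring, Atp5j2, Atp5k, Atp5l and Atp5mpl, fell with a median of -1.30, and the call of Atp5k was lost without any one of HMD replicates 1 or 3 or Bet+HMD replicates 1, 2 or 3 (-1.49 to -1.01). Atp5c1 and Atp5d of the shaft had log2 fold changes of -0.71 and -0.73, and Atp5s, coupling factor B, -0.40 (SE 0.08, 0.17 and 0.08). Of the peripheral stalk, Atp5f1, Atp5h and Atp5j fell (-0.54, -0.46 and -0.59), while Atp5o, which joins the stalk to the head, was not called (-0.25, interval -0.87 to 0.37), but was lower without HMD replicate 2 (-0.56). The call of Atp5h was lost without HMD replicate 1 (-0.43).

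**Figure D4:**
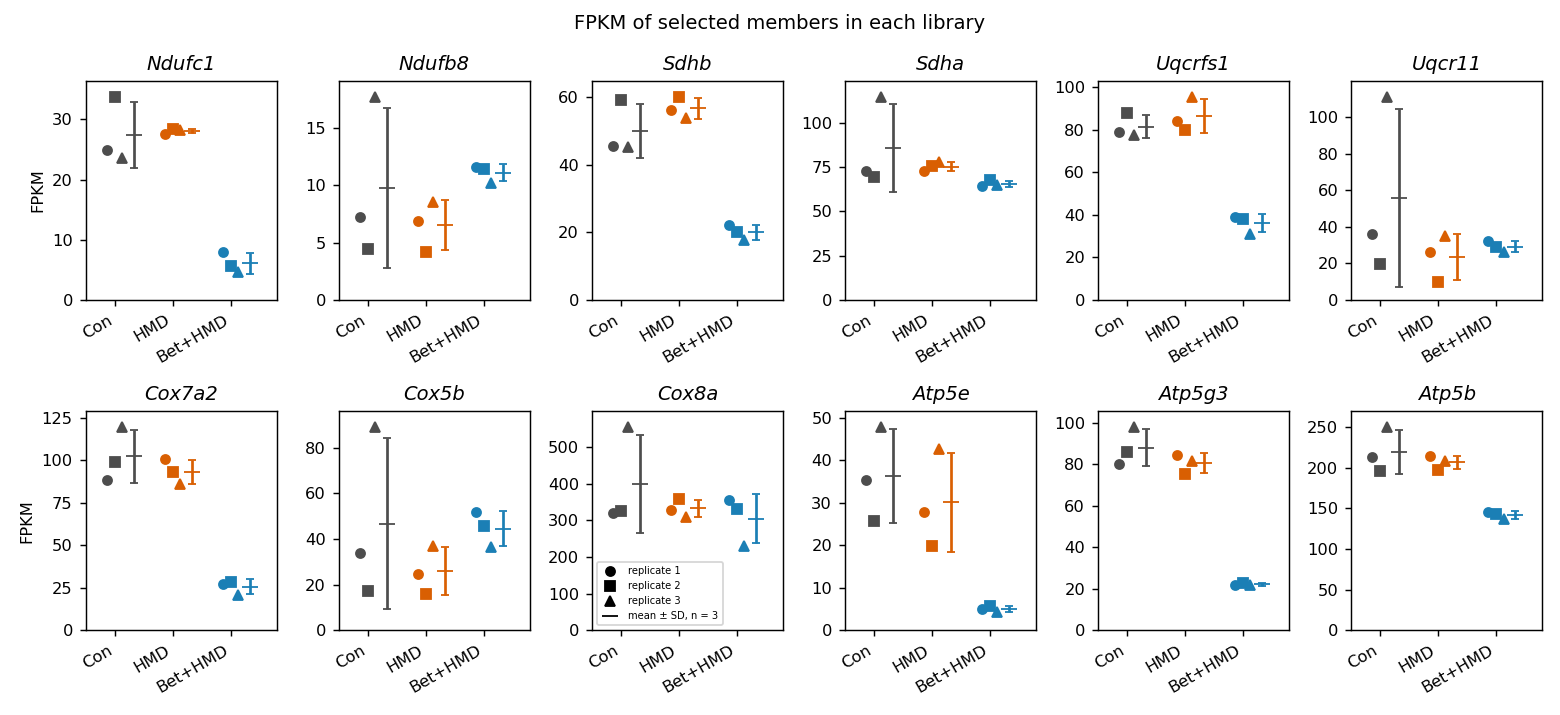
FPKM (y axis, linear from 0) of 12 selected members in each library of Con, HMD and Bet+HMD, with the mean ± SD of 3 libraries beside the points. Ndufc1, Sdhb, Sdha, Uqcrfs1, Cox7a2, Atp5e, Atp5g3 and Atp5b are lower in all 3 Bet+HMD libraries than in any other library, while Uqcr11, Cox5b, Cox8a and Ndufb8 are not.

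Bet+HMD was also compared with Con, using the same Bet+HMD libraries, so these values do not stand apart from those above. Of the 81 members tested, 56 were called lower and 1 higher, against 20.4% and 19.4% of all genes tested, and the groups did not overlap downwards for 60 members against 29.0% of all genes. The median log2 fold change was -0.88, against -0.04 over all genes. By complex, the calls downwards were 24 of 35, 2 of 4, 6 of 8, 9 of 17 and 15 of 17. The largest falls by complex were those of Ndufc1 (-2.02, SE 0.21), Sdhb (-1.28, SE 0.14), Uqcrh (-1.72, SE 0.14), Cox7a2 (-1.96, SE 0.16) and Atp5e (-2.61, SE 0.22). Cox6a2 was the single member called higher (log2 fold change 0.52, SE 0.16, adjusted p = 0.0364), and it was not called without any one of Con replicates 2 or 3 or Bet+HMD replicates 1, 2 or 3 (0.40 to 0.59). Ndufb8 and Cox5b, higher in Bet+HMD than in HMD, were not called against Con (0.36, interval -0.61 to 1.33 and 0.23, interval -1.02 to 1.48). Without Con replicate 3, 57 members were called lower and 2 higher, the latter being Ndufb8 and Ndufs6, and the member median was -0.69.

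The members were short genes, with a median length of 1495 bases against 4536 for the protein-coding genes tested, and short genes were lower in Bet+HMD in general. In each length class the members lay below other protein-coding genes. Under 1000 bases the median log2 fold change of Bet+HMD against HMD was -0.64 for 21 members and -0.35 for 248 others. From 1000 to 2000 bases it was -0.86 for 31 members and -0.34 for 1177 others, from 2000 to 4000 bases -0.66 for 19 and -0.15 for 3558, and from 4000 bases on -0.57 for 10 and 0.02 for 6887. With a length trend removed from every library, 57 members were called lower and 3 higher. The member median was then -0.58, a smaller fall than the -0.73 without that step. Against Con it went from -0.88 to -0.68. Across the 81 members the log2 fold change had next to no relation to log2 length (Pearson's r = 0.01, Spearman's rho = 0.04).

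**Figure D5:**
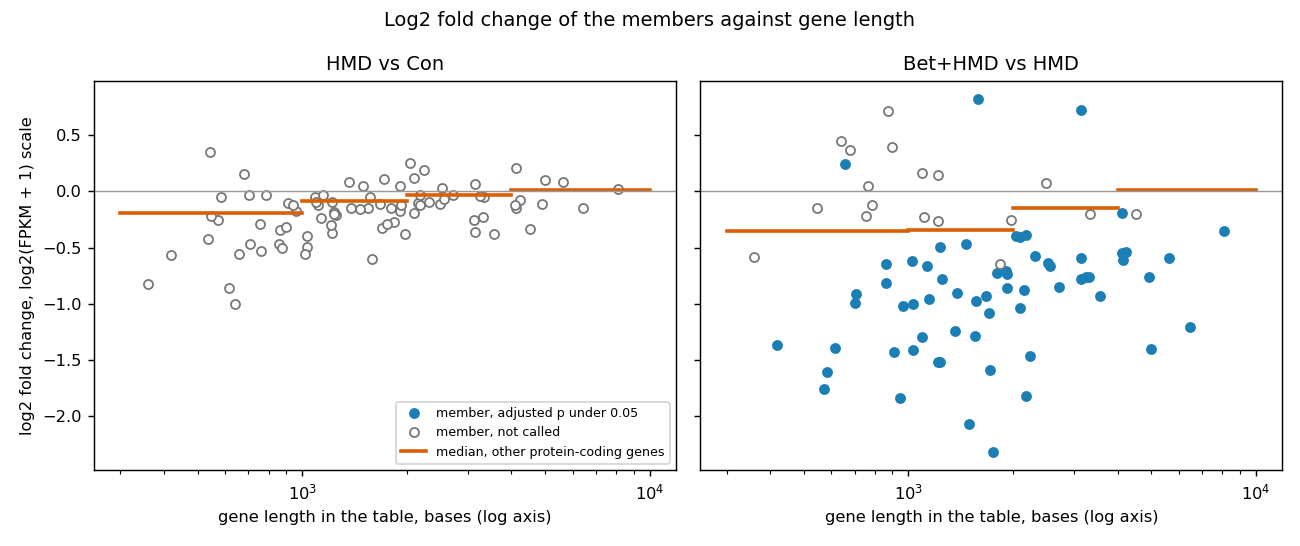
Log2 fold change of the members (y axis) against gene length in bases (x axis, log scale) for HMD against Con and for Bet+HMD against HMD, with the median of other protein-coding genes in 4 length classes as lines. For Bet+HMD against HMD most members of every length lie under the line of their class.

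Abundant genes were also called lower more often than scarce ones. Among genes with a mean of 20 to 100 FPKM in Con, which this contrast does not use, 42 of 53 members and 51.9% of 1941 other protein-coding genes were called lower, with medians of -0.73 and -0.28. At 100 FPKM or more the numbers were 10 of 11 members and 68.9% of 286 others, with medians of -0.91 and -0.44. Pseudogenes could take reads from the members, and 94 copies of 34 members, alike over at least 100 bases at 90% identity or more, were annotated. They held 1373 to 1906 reads per HMD library and 792 to 902 per Bet+HMD library, fewer where the members were lower. Set against the reads of all members, with or without a copy, that was at most 1.42% in HMD and 1.21% in Bet+HMD. The copies weighed most beside Ndufa12, Atp5g1 and Atp5l, with means of 203, 449.7 and 359 reads in HMD against 447, 1343 and 1180.0 on the genes themselves. In Bet+HMD they were 172, 276 and 63.7 against 207, 813 and 471, so the levels of these 3 are uncertain. Another gene lay on the opposite strand of 29 members, among them Ndufb5 (Mrpl47), Ndufs6 (Mrpl36), Sdha, Uqcrb and Atp5j (Gabpa). Whether the counting used strand is not stated, so the reads of such partners cannot be told apart. A gene on the same strand overlapped 13 members, among them Ndufb8 (Gm20538) and Cox4i1 (Gm20388). No strand setting would separate those reads.

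The 13 subunits encoded in mitochondrial DNA showed no shared direction. Their summed level was 61923 ± 3914 FPKM in HMD and 55137 ± 2249.9 in Bet+HMD, with 4 called lower and 3 higher. Their ratio to the nuclear members went from 14.2 ± 1.69 to 21.4 ± 2.07, ranges that did not overlap. The direction went with the level. In HMD mt-Nd3, mt-Nd4l, mt-Co2, mt-Co3, mt-Atp6 and mt-Atp8 had means of 1.87 to 132 FPKM, and the others of 5292 to 16961. The means of those low genes and of mt-Co1 were higher in Bet+HMD, and all others were lower. Why those genes read so low was not tested. The subunits the name rule does not reach split: Cyc1, the cytochrome c1 of complex III, was 50.1 ± 3.90 FPKM in HMD and 25.5 ± 1.20 in Bet+HMD (log2 fold change -0.95, adjusted p = 0.000192) and Usmg5, a small ATP synthase subunit, 323 ± 25.4 FPKM in HMD and 97.8 ± 8.22 in Bet+HMD (log2 fold change -1.71, adjusted p = 4.22e-05), while Ndufab1 and the inhibitor Atpif1 were not called (0.18 and 0.43). Of the assembly factors, 14 of the 43 tested were called lower and 3 higher (median log2 fold change -0.12), beside 25.5% and 22.8% of all genes tested. Ndufaf3, which acts early in complex I assembly, Sdhaf4, which guards the flavoprotein of complex II, Coa3 of complex IV and Tmem70 of the ATP synthase had the largest falls of their complexes (-1.27, -1.38, -1.07 and -1.02), while Foxred1, Cox11 and Pet100 rose (0.71, 0.52 and 0.78).

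Of the 13 citric acid cycle enzymes, which supply NADH and succinate, 7 of the 13 tested were called lower and 0 higher (median log2 fold change -0.40). Fh1, fumarase, was 25.5 ± 1.27 FPKM in HMD and 12.3 ± 0.230 in Bet+HMD (log2 fold change -0.99, adjusted p = 8.56e-05), and Mdh2, malate dehydrogenase, 68.3 ± 4.03 FPKM in HMD and 40.038 ± 2.28 in Bet+HMD (log2 fold change -0.76, adjusted p = 0.000348), while Cs, citrate synthase, was not called (-0.03, adjusted p = 0.732). Of the electron carriers and flavoproteins that feed the chain, 2 of the 6 tested were called lower and 1 higher (median log2 fold change -0.32). Cycs, cytochrome c, rose (0.36, adjusted p = 0.0167), and Etfa and Gpd2 fell (-0.72 and -0.39). Of the regulators of these genes, 2 of the 12 tested were called lower and 3 higher (median log2 fold change 0.01), beside the same 25.5% and 22.8% of all genes. Ppargc1a, the coactivator of mitochondrial biogenesis, was 11.7 ± 1.39 FPKM in HMD and 11.5 ± 0.508 in Bet+HMD (log2 fold change -0.02, adjusted p = 0.859), and Nrf1 1.40 ± 0.0837 FPKM in HMD and 1.47 ± 0.185 in Bet+HMD (log2 fold change 0.04, adjusted p = 0.779). Gabpa and Gabpb2, subunits of GABP, and Ppargc1b rose (0.31, 0.90 and 0.56), and Tfam, the transcription factor of mitochondrial DNA, and Yy1 fell (-0.69 and -0.33). In HMD against Con none of the genes of these lists was called.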

How the data were processed

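RNA of 9 hippocampus samples was sequenced, after ribosomal depletion per the study's methods, which describe no betaine group. Those methods also name a stranded mRNA library kit. Per the submitters' processing notes the reads were aligned to mm10 with HISAT2 2.1.0 and counted per gene with featureCounts 1.5.0-p3, whereas the study's methods name other versions. The strand setting of the counting is not given in the sources used here. The authors deposited FPKM per gene and sample in 2 tables, with gene length in bases, and replicates were not pooled. Columns named COL were read as Con. The columns of per-sample values left unmatched were 0. FPKM values times length and library size gave whole reads for 100% of values above 0 (within 0.05 reads), 16031464 to 18291952 per library in the later table, which was used throughout. Reads carry no molecular identifiers, so these numbers are not counts of molecules.

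The 2 groups of each comparison were fitted with limma 3.58.1 (R 4.3.3) on log2(FPKM + 1) with an intensity trend, for genes with a mean of at least 1 FPKM. Two-sided p-values were adjusted over all genes tested by the Benjamini-Hochberg method and called under 0.05. Fold changes on this scale understate the change of genes of low level. p-values measure only the spread between these samples. The script was tested on simulated data. The values of 1 member are not reported here. Members and lists were chosen with earlier results of these data known. Genes were named by role, by the largest called rise and fall per complex (or, with none called, the 3 smallest p in each direction), and by the highest and lowest level per complex, with other members named from their values. Alternatives were a pseudocount of 0.1, no filter, a filter at 5 FPKM, TPM, quantile normalization, median centring, length and GC trends, no intensity trend, all groups in one fit, limma voom on recovered reads, the replicate block, the earlier table and leaving out each library.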

Additional observations from a re-analysis of the deposited data

How the results depend on the processing

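In Bet+HMD against HMD, the count of members called lower was 60 and lay between 49 (TPM) and 61 (voom on recovered reads) under the other settings, and was 53 to 64 with 1 library left out. Of the 60, 46 were called lower under all 18 alternatives. The count called higher was 3, and it was 0 with no filter and with all 3 groups in one fit, 1 without the intensity trend, 6 under TPM and under quantile normalization, and 0 to 4 with 1 library left out. In Bet+HMD against Con, 56 members were called lower, with 47 (TPM) to 58 under other settings and 46 to 61 with 1 library left out. The count called higher was 1, and it was 0 with no filter, the filter at 5 FPKM, quantile normalization, the length trend removed, length and GC trends removed, all 3 groups in one fit and voom, and 0 to 2 with 1 library left out. In HMD against Con it was 0 in both directions under every setting run, the earlier table included, and the median log2 fold change of the members, -0.15, ran from -0.27 without Con replicate 2 to 0.0229 without Con replicate 3, where it reversed. Sdha reversed in Bet+HMD against HMD, to 0.0019 under TPM and 0.19 under quantile normalization. The cause was not tested. The fit with gene length and GC trends removed was chosen after seeing the data, and gave 56 members lower and 3 higher in Bet+HMD against HMD.

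With the replicate number as a block, 58 members were called lower and 2 higher in Bet+HMD against HMD, 51 and 1 in Bet+HMD against Con, and none in HMD against Con. The replicate block rests on titles that number the samples of each group from 1 to 3. Deviations of same-numbered samples correlated at -0.06, 0.34, 0.32, 0.02, -0.10, -0.15, -0.05, -0.09, -0.18 over the 3 comparisons and 3 numbers, so the numbers were not taken to pair the samples. Depth limits the scarce members, such as Cox8b, Cox6a2 and Cox4i2.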

Other observations

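Ribosomal proteins, chosen by name after the values were seen, were lower in Bet+HMD than in HMD as well. They were not matched to the members in length or level. In Con the 78 mitochondrial ones summed to a mean of 753 FPKM, and the 85 members to 4999.5. Of the cytosolic ribosomal proteins (names beginning with Rpl or Rps), 55 of the 71 tested were called lower and 0 higher (median log2 fold change -1.06), and their summed level was 4986 to 7585 FPKM in Con, 4717 to 5649 in HMD and 2185 to 2564 in Bet+HMD. Of the mitochondrial ribosomal proteins (Mrpl and Mrps), which make the subunits encoded in mitochondrial DNA, 32 of the 77 tested were called lower and 5 higher (median log2 fold change -0.27), with sums of 616 to 936 FPKM in Con, 610.02 to 724 in HMD and 469 to 534 in Bet+HMD.

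Among the mitochondrially encoded subunits, mt-Atp8 was 1.87 ± 0.393 FPKM in HMD and 55.0 ± 12.7 in Bet+HMD (log2 fold change 4.27, adjusted p = 1.57e-05) and mt-Nd4l 40.7 ± 2.45 FPKM in HMD and 194 ± 116 in Bet+HMD (log2 fold change 2.07, adjusted p = 0.00282), while mt-Co1 was 16961 ± 946 FPKM in HMD and 19331 ± 449.97 in Bet+HMD (log2 fold change 0.19, adjusted p = 0.124). At 1.87 FPKM over 204 bases, the HMD level of mt-Atp8 rests on few reads. Both mt-Atp8 and mt-Nd4l (297 bases) lay far below mt-Nd6, which has 519 bases and stood at 6522 FPKM in HMD. Why they read so low was not tested, so the step of mt-Nd4l is uncertain too. In Con mt-Atp8 ran from 0.813 to 15.2 FPKM, so the size of its step is uncertain.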
